A study of Homo sapiens with 59 samples.

Results

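PLAU, PLAUR, PLAT, F3 and TFPI, 5 genes whose products start or restrain clot dissolution and clot formation at the cell surface, were followed across 59 RNA-seq libraries of A549 cells. They were found by gene symbol among the Ensembl IDs of the deposited count table, where each matched 1 of 60675 genes, and all 5 passed the filter on low counts that left 18568 genes tested. A549 is an established human lung adenocarcinoma cell line. Every culture stood for 24 h with 1 of 8 herbal preparations, each extracted in 70% ethanol, or with the DMSO vehicle (3 libraries), and each preparation was given at 3 doses, spaced 5-fold. Aconiti Lateralis Radix Preparata was given at 20 µg/mL (low, 3 libraries), 100 µg/mL (medium, 2 libraries) and 500 µg/mL (high, 3 libraries). Citri Unshius Pericarpium and Cimicifugae Rhizoma were given at the same doses with 3 libraries each, and Zizyphi Fructus and Yijung-tang with 2 libraries each. Bupleuri Radix was given at 7.6, 38 and 190 µg/mL with 3 libraries a dose, and Coptidis Rhizoma at 4.4, 22 and 110 µg/mL with 2 libraries a dose. The series text says that an extract with an IC20 under 500 µg/mL had that IC20 as its top dose. Banhasasim-tang had 1 library at each of 20, 100 and 500 µg/mL and entered no test. The sample labels give the vehicle as 0.1% DMSO and the series text as 2%.

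Urokinase (PLAU) and tissue plasminogen activator (PLAT) are serine proteases that cut plasminogen to plasmin, the enzyme that dissolves fibrin and degrades matrix. Urokinase works at the cell surface, held by its lipid-anchored receptor (PLAUR), and in carcinoma cells this pair is known for its part in migration and invasion, whereas tissue plasminogen activator acts mainly on fibrin. Tissue factor (F3) is the membrane receptor for factor VII that starts the extrinsic pathway of coagulation, and tissue factor pathway inhibitor (TFPI) blocks the complex of tissue factor with activated factor VII as well as activated factor X. Inhibitors of the serpin family restrain both activators. In bulk RNA, a change in the number of cells of a kind and a change in RNA per cell cannot be told apart.

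PLAU lies on chromosome 10 at 73909177 to 73917497 on the plus strand (GENCODE 29 on GRCh38). PLAUR lies on chromosome 19 at 43646095 to 43670547 on the minus strand. F3 lies on chromosome 1 at 94529225 to 94541800 and TFPI on chromosome 2 at 187464230 to 187565760, both on the minus strand. All 5 are protein-coding, and the values below count reads over the whole gene. C10orf55 overlaps PLAU on the opposite strand and reached at most 1.16 CPM (counts scaled to a common library size) in any library, and CALCRL-AS1 overlaps TFPI on the opposite strand and reached at most 0.403 CPM. RN7SL368P lies inside PLAUR on the same strand and reached at most 0.214 CPM.

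Of the 5 genes, 4 had promoter windows in RefSeq's table (GRCh38.p14), PLAU with 2 start sites, and PLAT is named only. The 250 bases before the start site are printed for PLAUR, for the start of PLAU that lies farther downstream and for F3, since PLAUR and PLAU were both called in Aconiti and F3 was called in no comparison. Capitals mark matches to an AP-1 motif (TGANTCA), a kB motif (GGNNTTTCC) and a GC box (GGGCGG) on either strand.
PLAUR (chr19:43670170-43670419, minus strand): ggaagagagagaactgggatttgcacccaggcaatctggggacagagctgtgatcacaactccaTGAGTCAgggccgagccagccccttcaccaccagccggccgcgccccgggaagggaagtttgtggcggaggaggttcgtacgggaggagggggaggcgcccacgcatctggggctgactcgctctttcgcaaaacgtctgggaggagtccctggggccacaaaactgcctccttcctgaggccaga
PLAU (chr10:73910882-73911131, plus strand): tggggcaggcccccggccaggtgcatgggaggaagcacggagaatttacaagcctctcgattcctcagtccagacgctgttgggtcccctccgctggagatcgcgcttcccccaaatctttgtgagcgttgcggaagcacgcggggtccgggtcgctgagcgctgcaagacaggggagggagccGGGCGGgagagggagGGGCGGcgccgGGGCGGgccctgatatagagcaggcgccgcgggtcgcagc
F3 (chr1:94541760-94542009, minus strand): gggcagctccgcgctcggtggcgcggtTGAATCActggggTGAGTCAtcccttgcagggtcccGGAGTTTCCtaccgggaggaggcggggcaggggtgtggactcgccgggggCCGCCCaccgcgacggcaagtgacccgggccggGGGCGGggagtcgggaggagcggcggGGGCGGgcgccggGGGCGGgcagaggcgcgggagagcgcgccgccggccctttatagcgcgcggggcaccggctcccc
Counted from the start site at +1, so that the base before it is -1, PLAUR held 1 AP-1 match, at -186. F3 held AP-1 matches at -223 and -210, a kB match at -187 and 4 GC boxes between -137 and -65. The printed PLAU window held 3 GC boxes, at -66, -51 and -40, and no AP-1 match. The AP-1 and ETS enhancer known from work on human PLAU lies farther upstream than this window. AP-1 letters stood in 6.57% of the 35116 RefSeq promoter windows of this length, kB letters in 5.48% and GC boxes in 42.6%. Of the other motifs searched, an AhR core (GCGTG, in 32.2% of windows) matched at -113 in PLAU and at -86 in PLAUR, and TATAAA (10.7%) matched at -28 in F3. An antioxidant response element (TGACNNNGC, 10.9%) matched at -168 of the other PLAU window, at chr10:73910360-73910609. A CRE (TGACGTCA, 1.65%) and an ETS motif (CCGGAAG, 8.52%) matched none of the 5 windows, and TFPI's window held no match to any of the 8 motifs. No matches overlapped.

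**Figure D1:**
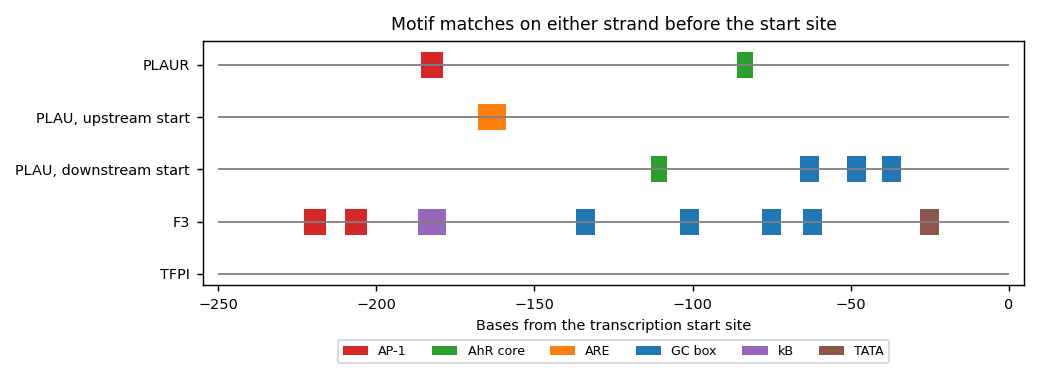
Positions of motif matches in the 250 bases before 5 RefSeq start sites of 4 genes. The horizontal axis gives bases from the start site and each coloured block is 1 match on either strand. The AP-1 block of PLAUR sits at -186, and F3 holds AP-1 blocks at -223 and -210.

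PLAU was the most abundant of the 5 per length. In vehicle its level was 17.2 CPM per kilobase of merged exon, against 3.68 for TFPI, 3.53 for PLAUR, 0.844 for F3 and 0.236 for PLAT. PLAT and F3 were close to the floor, with 26 to 81 and 33 to 106 counts a library, while PLAU had 756 to 3344, PLAUR 248 to 1060 and TFPI 281 to 2250. Libraries totalled 17214724 to 39751138 expected counts. Of the A549 and epithelial markers 11 of 12 were detected above 1 CPM somewhere, SFTPB being the exception, and CDKN2A and CDKN2B, which A549 has lost, stayed under 1 CPM in every library. All 5 endothelial markers also stayed under 1 CPM in every library, as did PTPRC, LYZ and CSF1R of 6 immune genes. The same held for DCN, LUM and PDGFRB of 6 fibroblast genes and for PF4 and PPBP of 4 platelet genes. The remaining genes of these lists reached 1 CPM in some library. The immune, fibroblast and platelet lists summed to at most 32.0, 78.2 and 12.1 CPM in a library.

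Before the results, 2 sets of libraries need naming. In 4 libraries, Citri Unshius Pericarpium replicate 3 at the high and medium dose and Cimicifugae Rhizoma replicate 2 at the medium and low dose, genes of antisense type summed to 3301 to 4890 CPM, against 2606 to 3078 CPM in the other 55, and their scores on the leading principal component (18.2% of the variance) were 41.0 to 107, against -18.0 to 15.5. TFPI had 17.4 to 44.1 CPM there, against 41.0 to 75.3 CPM elsewhere. Citri Unshius Pericarpium replicate 2 at the high and medium dose stood apart in another way, described with PLAU. A library set here means the libraries whose sample code starts with the same number, and the labels do not say what that number marks. Both extracts of a set share a number that the vehicle libraries lack. A difference from vehicle common to a set therefore cannot be told apart from a set difference. Comparisons of high with low dose stay within 1 set.

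A gene was called at an adjusted p (edgeR's quasi-likelihood test, Benjamini-Hochberg over the 18568 genes) under 0.05. Against vehicle, 7 of 105 tests of the 5 genes were calls: 4 at the Aconiti Lateralis Radix Preparata medium dose, where 17.5% of all genes tested were called, 2 at its high dose (4.65% of all genes) and 1 at the Coptidis Rhizoma high dose (12.6%). In the 3 other comparisons of these preparations none of the 5 was called, with 0.0% of all genes called at the Aconiti low dose, 0.447% at the Coptidis low dose and 3.27% at the Coptidis medium dose. Citri Unshius Pericarpium gave none in 15 tests, with 0.00539%, 0.0% and 4.42% of all genes called at the low, medium and high dose. Cimicifugae Rhizoma gave none with 0.0%, 0.0269% and 0.377%, Bupleuri Radix none with 0.0%, 0.00539% and 3.36%, Yijung-tang none with 0.0%, 0.0108% and 1.37%, and Zizyphi Fructus none with 0.0% at every dose. At an unadjusted p under 0.05 the 15 tests of each preparation held 2 in Citri, 2 in Cimicifugae, 1 in Bupleuri, 0 in Yijung-tang and 0 in Zizyphi, and DESeq2 called 1, 0, 0, 0 and 0. Where 0 genes were called by edgeR, 439 to 2565 of the 18568 had an unadjusted p under 0.05 and DESeq2 called 0 to 29. Tested for any difference among the 22 replicated groups, PLAU (adjusted p = 1.92e-08), PLAUR (4.25e-08) and PLAT (0.0192) were called, F3 (0.349) and TFPI (0.136) were not, and 18.7% of all genes were called. Without the 4 libraries TFPI was called as well, and 8573 of all genes were called in place of 3464.

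**Figure D2:**
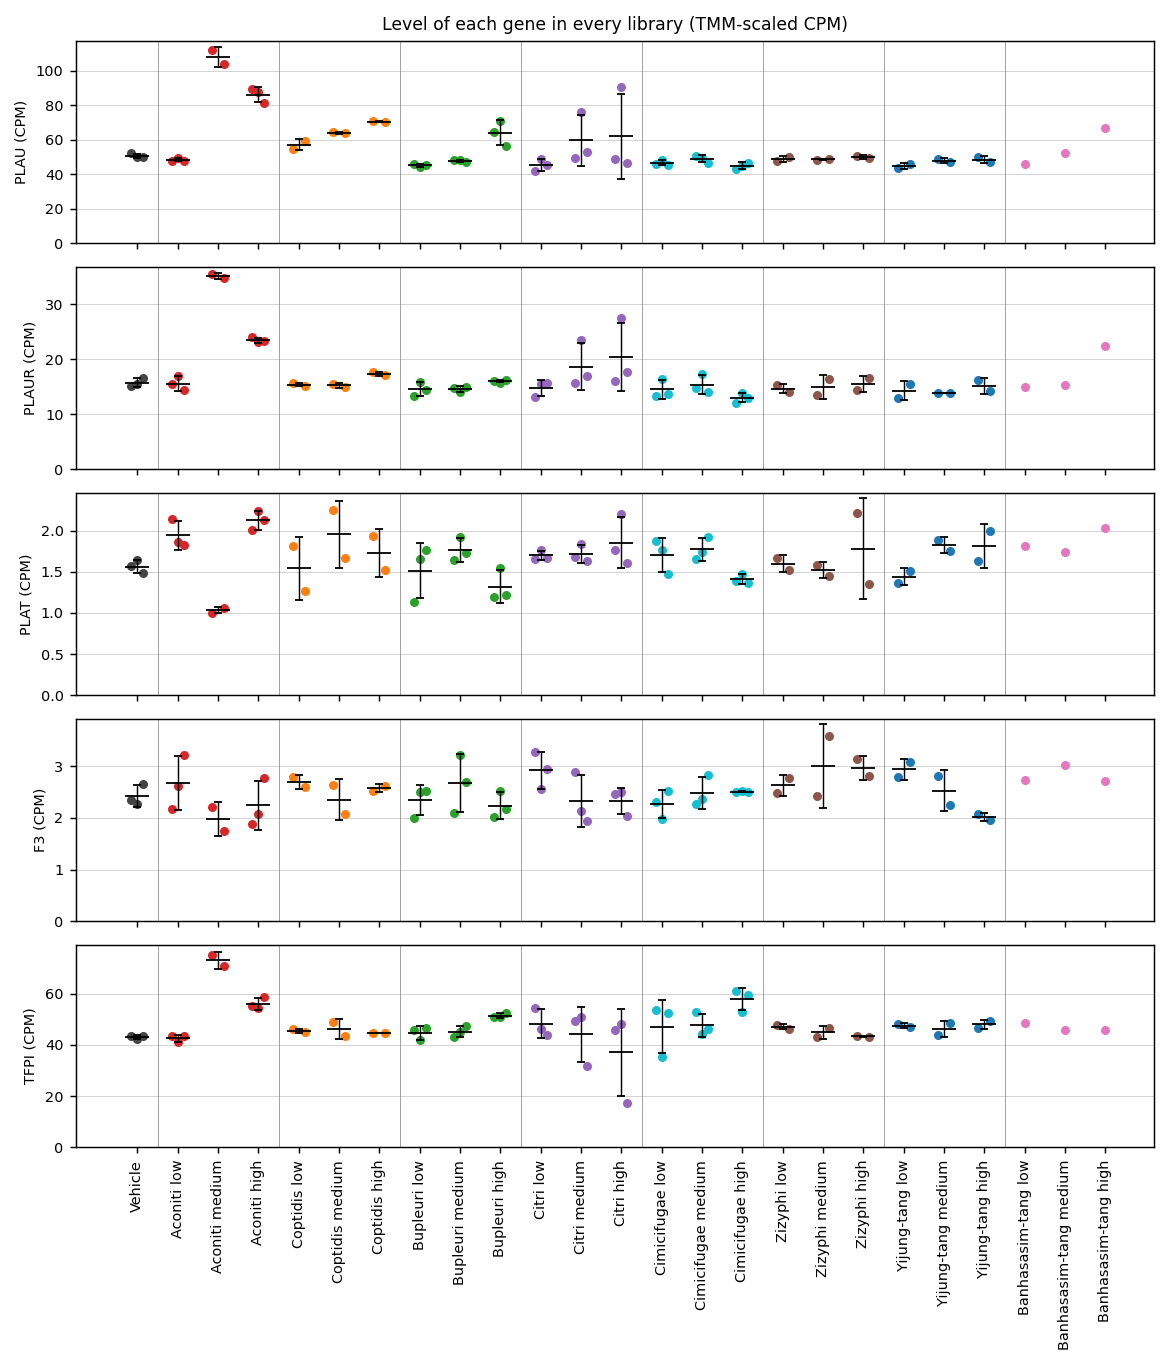
CPM of the 5 genes in each of the 59 libraries (dots), with the mean and SD of each replicated group (bar and whiskers), by preparation and dose from vehicle at the left. PLAU, PLAUR and TFPI peak at the Aconiti medium dose (PLAU 112 and 104 CPM), where PLAT is lowest (1.00 and 1.06 CPM).

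PLAU, urokinase itself, rose most with Aconiti Lateralis Radix Preparata. It had 112 and 104 CPM at the medium dose and 89.7, 87.8 and 81.1 CPM at the high dose, against 52.3, 50.1 and 50.2 CPM in vehicle. The low dose, at 47.8, 49.4 and 48.0 CPM, lay just under vehicle, and neither the medium nor the high dose overlapped with vehicle or with the low dose. The log2 fold change over vehicle was 1.08 ± 0.15 at the medium dose (standard error; adjusted p = 5.42e-07) and 0.76 ± 0.14 at the high dose (0.000273). Within the extract the high dose was above the low dose by 0.83 ± 0.14 (adjusted p = 8.62e-05; 3.29% of all genes called) and the medium dose above the low by 1.16 ± 0.15 (1.31e-07; 17.8%). Medium over high dose was not called (0.32 ± 0.15, adjusted p = 0.232; 7.78% of all genes called), although the 2 groups' values did not overlap, and it was called with only these libraries in the fit (adjusted p = 0.00084). The fit with only these libraries called 4567 of all genes for medium over high, against 1445 in the main fit. Every call of PLAU in Aconiti held in each alternative run.

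In Coptidis Rhizoma PLAU was 50.8 ± 1.22 CPM in vehicle (SD, n = 3) and 57.3 ± 3.24, 64.0 ± 0.483 and 70.6 ± 0.298 CPM at the low, medium and high dose (SD, n = 2 each). The libraries of each dose lay above all 3 of vehicle and above those of the dose below. Only the high dose was called (70.8 and 70.3 CPM; log2 fold change 0.47 ± 0.15, adjusted p = 0.0305), and not the high against the low dose (0.30 ± 0.17, adjusted p = 0.538; 2.31% of all genes called). The high-dose call was lost without vehicle replicate 2 (adjusted p = 0.062) or 3 (0.0616) and without either high-dose library (0.129 without replicate 2 and 0.124 without replicate 3), the log2 fold change then being 0.48 to 0.50. With only the libraries compared in the fit, PLAU was called at the medium dose (0.35, adjusted p = 3.97e-05), at the low dose (0.17, 0.0171) and for high against low dose (0.32, 9.88e-05). That fit called 4340, 2267 and 4342 of all genes in these 3 comparisons, against 607, 83 and 429 in the main fit. In the same library set PLAU had 50.6 and 49.2 CPM at the Zizyphi Fructus high dose, and Coptidis over Zizyphi at the high dose was 0.50 ± 0.17 (adjusted p = 0.056; 8.12% of all genes called), at different doses per mL. The adjusted p of that difference was 0.026 by DESeq2 (1687 genes called) and 0.00807 without the 4 libraries (3755 genes, against 1508 in the main fit). None of the other 4 genes was called there by edgeR or DESeq2, and none had an unadjusted p under 0.05.

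Bupleuri Radix, of the same library set as Aconiti, had 64.8, 71.1 and 56.4 CPM of PLAU at the high dose, against 46.0, 44.3 and 45.6 CPM at the low dose. The 2 groups did not overlap, and the high dose was above the low by 0.50 ± 0.14 (adjusted p = 0.0467; 1.58% of all genes called). Over vehicle the high dose was 0.33 ± 0.14 (adjusted p = 0.212). The call against the low dose was lost without high-dose replicate 1 (adjusted p = 0.147) or 2 (0.31) and without low-dose replicate 1 (0.136), 2 (0.179) or 3 (0.139).

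In Citri Unshius Pericarpium the rise rested on 1 library a dose. PLAU had 48.9, 90.6 and 46.7 CPM at the high dose and 49.6, 76.4 and 53.1 CPM at the medium dose, against 42.2, 48.7 and 45.3 CPM at the low dose. Replicate 2 was high at both upper doses. It also had 94.3 CPM of FOSL1 at the high dose, against 27.5 and 35.3 CPM in the other 2 high-dose libraries, and 6.47 CPM of EGR1 against 1.44 and 1.05 CPM; FOSL1 encodes an AP-1 subunit and EGR1 an immediate early transcription factor. Its total of 39751138 counts was the highest of all libraries, and its sum of antisense genes, at 2660 CPM, was within the range of the 55. High over low dose was called for PLAU (0.46 ± 0.14, adjusted p = 0.0499) and PLAUR (0.48 ± 0.13, 0.0468; 3.54% of all genes called). Without high-dose replicate 2 the log2 fold change fell to 0.07 for PLAU (adjusted p = 0.652) and to 0.18 for PLAUR (0.297). Without high-dose replicate 3 it was 0.63 (0.051) and 0.57 (0.141), and without low-dose replicate 1, 2 or 3 the adjusted p was 0.209, 0.0719 and 0.12 for PLAU and 0.207, 0.0718 and 0.104 for PLAUR. With the Citri libraries alone and replicate number as a block, neither was called (PLAU 0.38 and PLAUR 0.42, adjusted p = 0.353 for both). The labels do not say that replicate numbers pair the samples.

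The remaining preparations had PLAU near or below vehicle, with no call. Its values lay below all 3 vehicle libraries at the Cimicifugae high and low, the Zizyphi medium and every Yijung-tang dose. The same held at the Citri low, Bupleuri low and medium and Aconiti low dose. Lack of overlap with vehicle was thus common for PLAU, in both directions. Cimicifugae Rhizoma had 42.9, 45.0 and 46.8 CPM at the high dose, Zizyphi Fructus 47.8 to 50.6 CPM over its 3 doses and Yijung-tang 43.5 to 49.8 CPM, against 50.1 to 52.3 CPM in vehicle. The single Banhasasim-tang libraries had 45.8, 52.4 and 66.7 CPM at the low, medium and high dose, the last 0.39 above the vehicle mean on the log2 CPM scale, with no test.

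PLAUR, the urokinase receptor, followed PLAU in Aconiti. It had 35.5 and 34.7 CPM at the medium dose and 24.0, 23.1 and 23.4 CPM at the high dose, against 15.1, 15.5 and 16.6 CPM in vehicle. Neither group overlapped with vehicle or with the low dose (15.4, 16.9 and 14.3 CPM). The log2 fold change over vehicle was 1.16 ± 0.15 at the medium dose (adjusted p = 9.24e-08) and 0.58 ± 0.13 at the high dose (0.00521). High over low dose was 0.59 ± 0.13 (adjusted p = 0.00442) and medium over low 1.17 ± 0.14 (5.67e-08). PLAUR was also called between the medium and the high dose (0.58 ± 0.14, adjusted p = 0.0069), a call lost without medium-dose replicate 1 (0.0751) or 2 (0.0585).

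The rise of PLAU in Coptidis and Bupleuri had no called counterpart in PLAUR. At the Coptidis high dose PLAUR had 17.6 and 17.1 CPM, above the 15.1, 15.5 and 16.6 CPM of vehicle without overlap (0.14 ± 0.15, adjusted p = 0.637). At the Bupleuri high dose it had 16.1, 15.7 and 16.2 CPM, against 13.3, 15.8 and 14.5 CPM at the low dose (0.14 ± 0.13, unadjusted p = 0.294 by edgeR's quasi-likelihood test). In Citri, replicate 2 held 27.5 CPM (high dose) and 23.5 CPM (medium dose), while the other 4 libraries at these doses had 15.6 to 17.7 CPM. Over vehicle the Citri high dose was 0.38 ± 0.13 (adjusted p = 0.075), and it was called by DESeq2 (0.0407), without the 4 libraries (0.0486) and without high-dose replicate 1 (0.00526, where PLAU was called as well at 0.0199). Cimicifugae high dose had the lowest group mean, 13.0 ± 0.831 CPM (SD, n = 3; -0.28 ± 0.14 over vehicle, adjusted p = 0.67). The Banhasasim-tang high-dose library had 22.4 CPM, above every vehicle library.

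**Figure D3:**
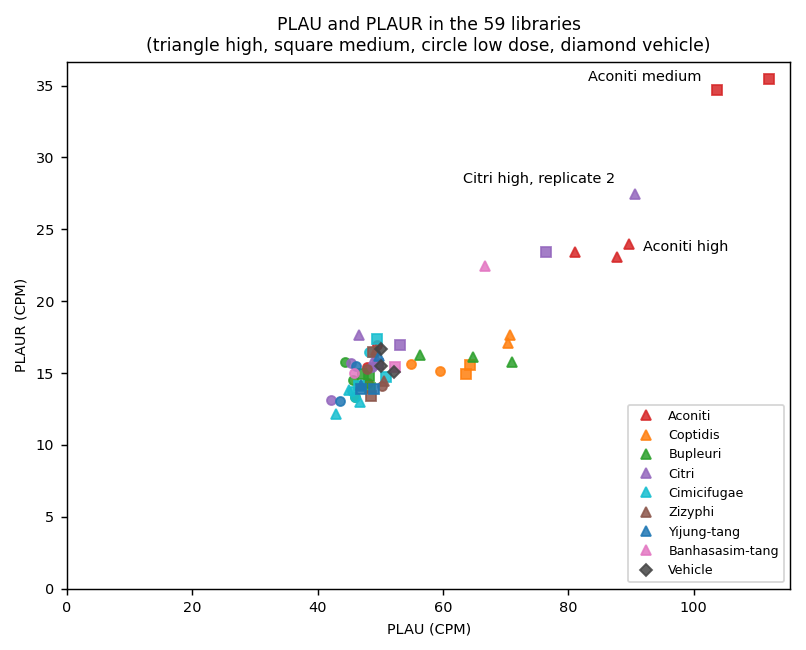
PLAUR against PLAU in CPM, 1 point a library, with colour for the preparation and shape for the dose. The 2 Aconiti medium-dose libraries lie at the upper right (PLAU 112 and 104 CPM). Coptidis high (PLAU 70.8 and 70.3 CPM) lies to the right of vehicle, at 17.6 and 17.1 CPM of PLAUR against 15.1 to 16.6 CPM.

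Over the 25 group means of log2 CPM, PLAU and PLAUR had a Pearson correlation of 0.90, and 0.91 without the 4 libraries. The other 9 pairs of the 5 genes ran from -0.55 (PLAT with TFPI) to 0.47 (PLAU with TFPI). Without the 4 libraries they ran from -0.57 (F3 with TFPI, -0.34 with them) to 0.58 (PLAUR with TFPI, 0.43 with them). Each preparation gives 3 of these points and all libraries were scaled together, so the values are a description.

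PLAT, tissue plasminogen activator, went the other way at the Aconiti medium dose. The gene lies on the minus strand of chromosome 8 at 42175233 to 42207724 (GENCODE 29 on GRCh38). It had 1.00 and 1.06 CPM there, against 1.57, 1.64 and 1.49 CPM in vehicle and 2.14, 1.86 and 1.82 CPM at the low dose. The high dose, at 2.01, 2.24 and 2.13 CPM, was the highest of the 25 groups, and the medium dose the lowest. Medium against high dose was called (-1.04 ± 0.19, adjusted p = 0.000202), as was medium against low (-0.91 ± 0.19, 0.000439), and both held in each alternative. Against vehicle the medium dose was -0.60 ± 0.20 (adjusted p = 0.0387), a call lost by DESeq2 (0.0872), with no filter on low counts (0.349) and without any 1 of the 3 vehicle libraries (0.0825, 0.133 and 0.0555 without replicates 1, 2 and 3) or of the 2 medium-dose libraries (0.212 and 0.155). The high dose against vehicle was not called (0.44 ± 0.16, adjusted p = 0.134). So in Aconiti the activators PLAU and PLAT had opposite signs at 100 µg/mL, and at 500 µg/mL only PLAU was called. With 26 to 81 counts a library, PLAT differences of the size seen elsewhere, -0.24 to 0.32 over vehicle in the 18 comparisons outside Aconiti, were within about 2 standard errors.

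F3, the tissue factor gene, was called in none of 36 comparisons by edgeR, in 0 by DESeq2 and in none of the other alternatives, and 2 of the 36 had an unadjusted p under 0.05. These were Yijung-tang high over low dose (2.07 and 1.96 CPM against 2.79 and 3.08 CPM, -0.54 ± 0.21, adjusted p = 0.608) and Aconiti medium over low dose (2.21 and 1.75 CPM against 2.17, 2.62 and 3.22 CPM, -0.43 ± 0.19, adjusted p = 0.138). Its libraries ran from 1.75 to 3.58 CPM with a median of 2.51, and vehicle had 2.35, 2.27 and 2.66 CPM. A standard error near 0.17 to 0.20 at 33 to 106 counts a library sets what could be detected over vehicle. The group means ran from 1.98 ± 0.325 CPM at the Aconiti medium dose (SD, n = 2) to 3.00 ± 0.809 CPM at the Zizyphi medium dose (SD, n = 2) among replicated groups, and in the order of all 25 groups the only neighbours without overlap were 2 single Banhasasim-tang libraries.

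TFPI, the inhibitor of the tissue factor complex, rose at the Aconiti medium dose. It had 75.3 and 70.7 CPM there, against 43.6, 42.3 and 43.6 CPM in vehicle. No other library reached these values, the next being 61.0 CPM in Cimicifugae high dose replicate 1. The log2 fold change was 0.76 ± 0.20 over vehicle (adjusted p = 0.00503), 0.0558 without medium-dose replicate 1, and 0.78 ± 0.20 over the low dose (0.0039). The high dose, at 55.0, 54.4 and 58.7 CPM, lay above vehicle and above the low dose (43.5, 41.0 and 43.4 CPM) without overlap, but was not called against either (0.38 ± 0.18, adjusted p = 0.307, and 0.40 ± 0.18, 0.368). Lack of overlap with vehicle was common for TFPI too. Its values also lay above every vehicle library at the Coptidis high and low, Zizyphi low and Citri low dose. The same held at the Cimicifugae high and medium, the Bupleuri high and every Yijung-tang dose.

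Leaving out the 4 libraries set apart above, which hold no Aconiti or Bupleuri library, left the TFPI fold changes nearly as they were and lowered the adjusted p. Without them the Aconiti high dose was called over vehicle (0.38, adjusted p = 4.93e-05) and over the low dose (0.40, 2.02e-05), and the medium over the high dose (0.39, 7.35e-05). Without them TFPI was also called at the Cimicifugae high dose (0.42, adjusted p = 6.5e-05, against 0.568 with them). That dose had 61.0, 52.9 and 59.4 CPM, against 43.6, 42.3 and 43.6 CPM in vehicle. The Cimicifugae low-dose libraries kept in that setting, replicates 1 and 3, had 53.6 and 52.5 CPM. These lay above vehicle too and overlapped with the high dose. Without the 4 libraries TFPI was called neither at the Cimicifugae low dose over vehicle nor for high over low dose. The rise was therefore not shown to be specific to the high dose. The Bupleuri high dose, at 50.8, 50.9 and 52.5 CPM, was also called without the 4 libraries (0.26, adjusted p = 0.00635, against 0.604 with them). Calls over all genes rose too without the 4 libraries. At the Aconiti high dose they went to 2746 from 864 over vehicle and to 1780 from 610 over the low dose. For Aconiti medium over high dose they went to 3723 from 1445. Over vehicle they went to 683 from 70 at the Cimicifugae high dose and to 2623 from 624 at the Bupleuri high dose. In Citri the fall ran through 1 library: the high dose had 45.8, 48.1 and 17.4 CPM, against 54.6, 46.4 and 43.8 CPM at the low dose (-0.37 ± 0.18, adjusted p = 0.208). It was called without high-dose replicate 1 (-0.54, adjusted p = 0.0458) or 2 (-0.61, 0.0335), each of which left the library at 17.4 CPM in the group.

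**Figure D4:**
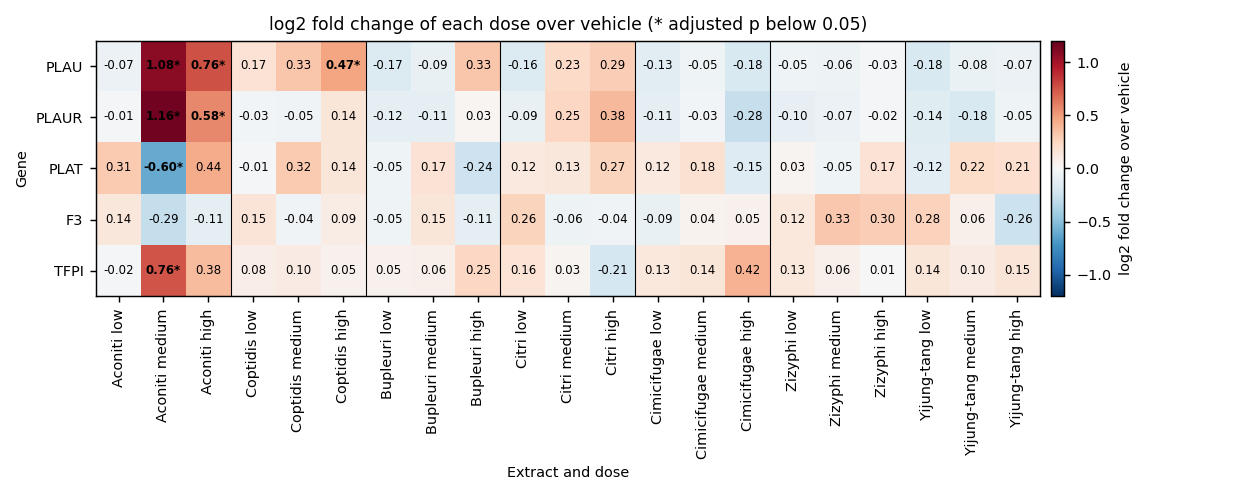
Fitted log2 fold change over vehicle of the 5 genes (rows) at each dose of the 7 replicated preparations (columns), red for higher and blue for lower, with the value in each cell. Stars mark the 7 calls at an adjusted p under 0.05: 4 at the Aconiti medium dose, 2 at its high dose and PLAU at the Coptidis high dose.

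Preparations of 1 library set were also compared at their high dose. Cimicifugae over Citri, both at 500 µg/mL, gave calls for PLAUR (-0.66 ± 0.14, adjusted p = 0.00549), PLAU (-0.47 ± 0.14, 0.035) and TFPI (0.63 ± 0.18, 0.0355), with 7.67% of all genes called. The PLAUR call held with each of the 6 libraries left out in turn. The other calls rest on the Citri libraries already named: PLAU was -0.09 without Citri replicate 2 (adjusted p = 0.533), TFPI was 0.30 without Citri replicate 3 (0.431), and PLAU and TFPI were also lost without any 1 of the 3 Cimicifugae libraries (0.0793 to 0.142 for PLAU, 0.0659 to 0.142 for TFPI). With the Citri and Cimicifugae libraries alone in the fit, none of the 3 was called (adjusted p = 0.601 for each). The difference between the 2 preparations in their change of high over low dose was called for PLAUR (-0.64 ± 0.19, adjusted p = 0.0418; 7.02% of all genes called). It was lost without the 4 libraries (0.332), with only the libraries compared (0.579) and in 8 of the 12 fits that each left out 1 library.

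Bupleuri at 190 µg/mL over Aconiti at 500 µg/mL gave calls for PLAUR (-0.55 ± 0.13, adjusted p = 0.0184) and PLAT (-0.69 ± 0.16, 0.0184), with 1.33% of all genes called. PLAT had 1.19, 1.55 and 1.21 CPM in Bupleuri, against 2.01, 2.24 and 2.13 CPM in Aconiti, and the groups did not overlap. PLAU was -0.43 ± 0.14 (adjusted p = 0.133), and was called without the 4 libraries (0.0186), where 958 genes were called in place of 247. The PLAUR call was lost without any 1 of the 6 libraries (0.0512 to 0.0811) and the PLAT call with no filter on low counts (0.414), without Bupleuri replicate 1 (0.143) or 3 (0.139) and without Aconiti replicate 2 (0.1) or 3 (0.0635). For the difference in high over low dose between Bupleuri and Aconiti none of the 5 was called (0.318% of all genes), with 1, PLAUR, at an unadjusted p under 0.05 and 0 by DESeq2. For Coptidis and Zizyphi none was called (0.355%), with 0 at an unadjusted p under 0.05 and 0 by DESeq2. High over low dose itself gave none of the 5 in Zizyphi (0.0% of all genes), Cimicifugae (0.221%) and Yijung-tang (0.431%), with 0, 0 and 1 at an unadjusted p under 0.05 and 0 by DESeq2 in each.

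The 5 genes were set beside 5 lists of pathway genes, 113 in all and 91 of them tested. The list counts depend on the 4 libraries set apart, none of them Aconiti: without those, 37 of 70 counts moved by more than 1.5 times, and with no filter on low counts 21 of 70. The partners of plasminogen activation include the serpins that inhibit the activators, receptors for plasminogen and the clearance receptor LRP1. At the Aconiti medium dose 3 of the 16 tested rose and 6 fell, beside 8.23% and 9.28% of all genes tested, and the list median was -0.25 against -0.01 for all genes. The largest changes there, chosen after their values were seen, were SERPINB8 (log2 fold change 1.83 over 4.78 ± 0.168 CPM in vehicle), known as a furin inhibitor, SERPINF2 (1.13 ± 0.0359 against 2.84 ± 0.0439 CPM, -1.33), the antiplasmin, and VTN (8.65 against 19.5 CPM, -1.17), vitronectin, which binds the urokinase receptor. Plasminogen (PLG) was at 0.233 CPM at the medium dose and 0.524 CPM in vehicle.

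At the Aconiti high dose 2 of the 16 partners rose and 2 fell (2.56% and 2.09% of all genes; list median -0.05, all genes 0.00): SERPINB8 and SERPINE2 rose, VTN and SERPINI1 fell. SERPINE2, protease nexin 1, inhibits thrombin and urokinase. At the Coptidis high dose 3 rose and 1 fell (6.41% and 6.14%; list median 0.02, all genes -0.01). There SERPINB8 (1.32) and SERPINE2 (0.46) rose while VTN fell (-0.91). At the Citri high dose 2 rose, F12 (0.84) and SERPINB6 (0.74), beside 3.52% of all genes higher and 0.905% lower. At the Bupleuri high dose SERPINI1 (-0.80) and VTN (-0.73) fell, beside 2.05% higher and 1.31% lower. Cimicifugae (0.151% higher and 0.226% lower) and Yijung-tang (0.781% and 0.587%) had none at the high dose. Without the 4 libraries the Aconiti high dose had 4 higher and 5 lower, Cimicifugae 1 lower and Yijung-tang 2 lower. Calls over all genes at these high doses then went to 2746 from 864, to 683 from 70 and to 1670 from 254.

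Of 17 tested coagulation genes, 5 rose and 6 fell at the Aconiti medium dose (list median -0.22), beside 8.23% and 9.28% of all genes. Prothrombin (F2, 1.33 ± 0.128 against 4.36 ± 0.825 CPM in vehicle, -1.70) and protein C (PROC, 0.383 ± 0.0273 against 1.40 ± 0.0775 CPM, -1.86) fell from levels that were already low. F7, with 2 counts over both libraries against 19 over the 3 of vehicle, was called lower (adjusted p = 0.0381) with no fold given. The protease-activated receptor F2RL1, which the tissue factor complex can cleave, rose (308 ± 4.89 against 116 ± 3.91 CPM, 1.42), as did THBD (thrombomodulin), TFPI2, F2R (the thrombin receptor) and ANXA5, while PROS1, PROCR and GGCX fell. At the Aconiti high dose 3 rose and 0 fell, beside 2.56% and 2.09% of all genes: F2RL1 (1.05), F2R (0.78) and THBD (0.56). Without the 4 libraries this became 5 higher and 4 lower, with 2746 of all genes called in place of 864. Besides Aconiti, F2R was called higher at the Coptidis (0.66), Bupleuri (0.76), Citri (0.41) and Yijung-tang (0.40) high doses. In Yijung-tang it was the only list gene called. F2R was not called at the Cimicifugae or the Zizyphi high dose, the latter with 0.0% of all genes called. Coptidis had 1 higher and 3 lower (median 0.20), the lower ones PROCR (-0.55), VKORC1 (-0.53) and GGCX; Bupleuri had F2RL1 (0.75) beside F2R, and Citri ANXA5 (0.58). Cimicifugae had none (0.151% and 0.226% of all genes), but 1 higher and 3 lower without the 4 libraries, where 683 of all genes were called in place of 70. Of all genes, 6.41% were higher and 6.14% lower at the Coptidis high dose. These shares were 2.05% and 1.31% in Bupleuri, 3.52% and 0.905% in Citri and 0.781% and 0.587% in Yijung-tang.

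Pericellular proteases, their inhibitors and growth factors they free made up 21 tested genes. At the Aconiti medium dose 4 rose and 5 fell (median 0.05), beside 8.23% and 9.28% of all genes. Without the 4 libraries 8 rose there, and 6018 of all genes were called in place of 3253. Cathepsin L (CTSL) had 395 ± 8.26 CPM, against 193 ± 7.24 CPM in vehicle (1.03 ± 0.15, adjusted p = 1.15e-06). The collagenase MMP1 (56 counts in 2 libraries against 8 in 3) and stromelysin 2, MMP10 (60 against 9), were called higher at means of 0.933 and 0.998 CPM, with no fold given, and MMP14 also rose, while TIMP3, TIMP2, RECK, MMP7 and LTBP1 fell. MMP1 and MMP10 lay under the filter's limit of 0.382 CPM in every vehicle library, and of the other 19 genes 2 rose and 5 fell. At the Aconiti high dose 2 rose and 2 fell (median 0.11), MMP10 (136 counts in 3 libraries against 9), CTSL (0.98), TIMP3 (-0.81) and TIMP2. Of the 19 genes other than MMP1 and MMP10, 1 rose and 2 fell there (median 0.04). At the Coptidis high dose 1 rose, MMP14 (0.73), and 3 fell, TIMP2 (-0.73), MMP15 (-0.56) and LTBP1 (median 0.05). Citri had 3 higher, TGFB1 (0.61), CTSD (0.58) and CTSL (0.57), with means of 137, 293 and 286 CPM and SDs of 45.2, 121 and 83.4 CPM. Bupleuri had CTSL (0.87) and CTSB (0.34) higher and TIMP3 (-0.64) lower, Cimicifugae MMP7 (-0.75) lower and Yijung-tang TIMP2 (-0.27) lower. Of all genes, 2.56% were higher and 2.09% lower at the Aconiti high dose, and 6.41% and 6.14% in Coptidis. The shares were 3.52% and 0.905% in Citri, 2.05% and 1.31% in Bupleuri, 0.151% and 0.226% in Cimicifugae and 0.781% and 0.587% in Yijung-tang.

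Of 13 tested membrane partners of the urokinase receptor, 3 rose and 2 fell at the Aconiti medium dose (median 0.08), beside 8.23% and 9.28% of all genes: EGFR (390 ± 25.7 against 181 ± 17.3 CPM in vehicle, 1.11), ITGA3 (497 against 269 CPM, 0.89) and ITGB5 rose, and ITGB6 (0.781 ± 0.157 against 5.81 ± 0.243 CPM, -2.89) and CD82 (-1.05) fell. ITGA3, the integrin alpha 3 chain, was the 1 called partner at the Aconiti high dose (0.75) and at the Citri high dose (0.74), with 5 higher and 1 lower in Aconiti without the 4 libraries, and it rose at the Bupleuri (0.53) and Coptidis (0.42) high doses together with ITGA5 (0.38 and 0.39). ITGB6 fell at the Bupleuri high dose (-0.92), and CAV1 fell there (-0.36) and at the Coptidis high dose (-0.34). Cimicifugae and Yijung-tang had none, but 1 higher in Cimicifugae and 2 higher and 1 lower in Yijung-tang without the 4 libraries. Calls over all genes then went to 2746 from 864 at the Aconiti high dose. They went to 683 from 70 in Cimicifugae and to 1670 from 254 in Yijung-tang. In the main fit 2.56% of all genes were higher and 2.09% lower at the Aconiti high dose, and 6.41% and 6.14% in Coptidis. The shares were 3.52% and 0.905% in Citri, 2.05% and 1.31% in Bupleuri, 0.151% and 0.226% in Cimicifugae and 0.781% and 0.587% in Yijung-tang.

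The AP-1, EGR, ETS, KLF and NF-kB transcription factors known from work on the PLAU, PLAUR and F3 promoters had the largest list median. Their list also holds NFKBIA, which encodes an inhibitor of NF-kB. All 24 genes of the list were tested, and at the Aconiti medium dose 19 rose and 0 fell. The list median there was 1.10 against -0.01 for all genes, of which 8.23% rose and 9.28% fell. EGR2 and EGR3 lay under the filter's limit of 0.382 CPM in every vehicle library and passed it only through libraries where they were higher. Of the other 22 genes 17 rose and 0 fell (median 0.89). FOSB had 45.4 ± 3.13 CPM, against 1.23 ± 0.175 CPM in vehicle (5.19 ± 0.58), and EGR1 had 37.3 ± 0.174 CPM, against 1.14 ± 0.239 CPM (5.01 ± 0.46). FOSL1 had 168 ± 4.47 CPM, against 27.6 ± 0.892 CPM, and NFKB2 129 ± 2.44 CPM, against 61.1 ± 1.22 CPM. At the Aconiti high dose 8 rose and 1 fell (median 0.38), EGR1 (3.73), FOSB (2.32) and FOSL1 (1.40) most. At the Coptidis high dose 10 rose and 1 fell (median 0.52), EGR1 (1.52), FOSL1 (1.32) and ETS1 (69.8 ± 3.23 against 28.3 ± 0.790 CPM in vehicle) most, and ETS2 was the 1 lower at both. Bupleuri had EGR1 (2.15) and ETV4 (0.46) higher and ETS2 (-0.34) lower (median 0.18), Citri EGR1 (1.49), RELB (0.78) and ETV4 (0.61) higher (median 0.35), and Yijung-tang ETS2 (-0.41) lower. In Citri the EGR1 value rests on replicate 2, and without the 4 libraries the Aconiti high dose had 13 higher in place of 8. In that setting 2746 of all genes were called there in place of 864. Shares of all genes higher and lower were 2.56% and 2.09% at the Aconiti high dose and 6.41% and 6.14% in Coptidis. They were 2.05% and 1.31% in Bupleuri, 3.52% and 0.905% in Citri and 0.781% and 0.587% in Yijung-tang.

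**Figure D5:**
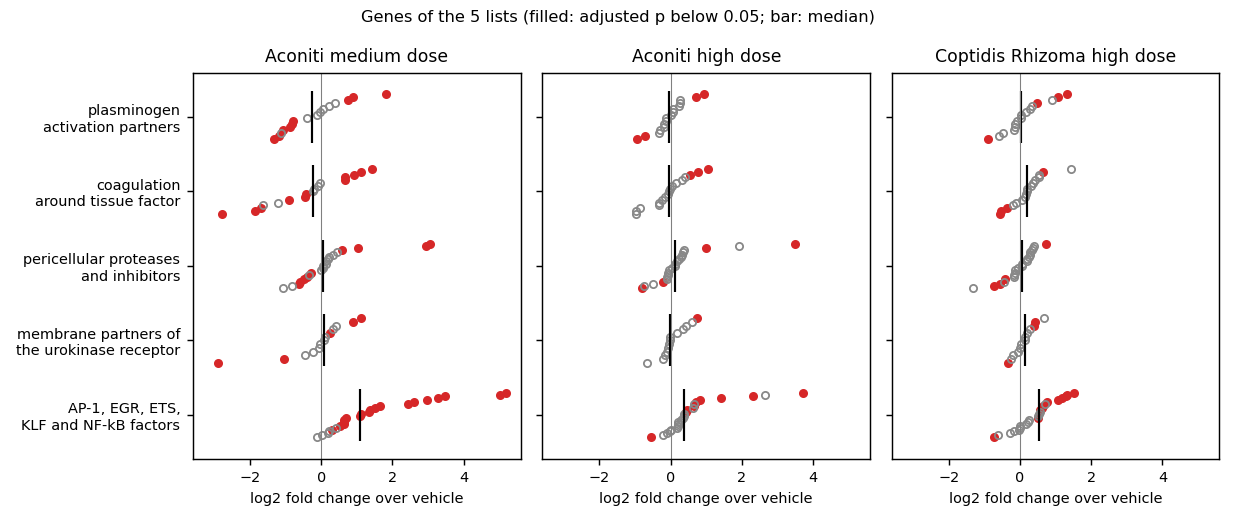
Fitted log2 fold change over vehicle of the tested genes of the 5 lists at the Aconiti medium, Aconiti high and Coptidis high dose; filled red points passed an adjusted p of 0.05, open points did not, and black bars are list medians. The median of the transcription factor list is 1.10, 0.38 and 0.52, while the medians of the other 4 lists lie between -0.25 and 0.20.

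At the Aconiti medium dose the epithelial marker list summed to 14266 to 15127 CPM, against 20070 to 21044 CPM in vehicle. The immune list summed to 29.8 to 32.0 CPM there against 8.54 to 10.0 CPM, nearly all of it CD68 (29.3 ± 1.55 against 6.18 ± 0.435 CPM), with PTPRC, LYZ and CSF1R under 1 CPM. The fibroblast list summed to 5.22 to 5.35 CPM against 34.5 to 36.0 CPM, mostly COL1A1 (4.24 ± 0.0182 against 32.7 ± 0.615 CPM). The platelet list summed to 5.49 to 6.04 CPM against 4.25 to 6.85 CPM, and the endothelial list to 0.0991 to 0.134 CPM against 0.0391 to 0.209 CPM. The part of these shifts in the results above was not tested.

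Of 11287 genes with a symbol and a mean of at least 5 CPM in some group, those most like each of the 5 over the 25 group means (Pearson correlation of log2 CPM) were as follows. PLAU was closest to FOSL1 (0.96), DVL1 (0.95) and NFKB2 (0.95), of which FOSL1 and NFKB2 stand in the list of transcription factors. PLAUR was closest to STAMBPL1 (0.96), TMEM158 (0.94) and SOCS2 (0.94). TFPI was closest to USP12 (0.86), RICTOR (0.85) and AADACP1 (0.84). PLAT and F3, low in counts, reached lower values: DDB2 (0.76), SNRPN (0.67) and MLLT11 (0.67) for PLAT, and PHLDB2 (0.77), ALPK2 (0.77) and SYTL2 (0.76) for F3. By rank the first places moved, and 11 of the 15 correlations changed by over 0.1. FOSL1 had a Spearman correlation of 0.75 with PLAU and place 103, NFKB2 0.88 and place 6, and STAMBPL1 0.83 with PLAUR and place 5. TMEM158 had 0.70 with PLAUR and place 64, and USP12 0.55 with TFPI and place 145. SNRPN had 0.46 with PLAT and place 90, while SYTL2 had 0.82 with F3 and place 2.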

How the data were processed

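Libraries were made with an MGIEasy directional mRNA kit and read as 100 bp pairs on an MGIseq instrument, per the labels' protocols. The submitters' processing notes name RSEM 1.3.3 and STAR 2.7.3a, besides FastQC 0.11.9 and the trimmer Trim Galore 0.6.5, with the builds hg38 and GRCh38. For the annotation release and the strand setting, the sources used here give no name. From these steps the authors deposited RSEM expected counts per Ensembl gene, of which 84.4% were whole to within 1e-09. The table also holds 210 per-sample columns of no sample of this series, which were not used. Gene symbols and positions came from GENCODE 29.

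The expected counts were rounded and fitted in R 4.3.3 with edgeR 4.0.16 (TMM scaling, filterByExpr at 10 counts and 15 in total, which 1 library can pass since some groups hold 1, quasi-likelihood F test) as 1 model of 25 group means, with 34 residual degrees of freedom, so groups of 2 libraries share the spread of all groups. P-values were adjusted by Benjamini-Hochberg over the 18568 genes tested within each of 36 comparisons and 1 test across the replicated groups. CPM are counts over TMM-scaled library size, and likeness used log2 CPM with a prior count of 2. The members and lists were chosen with earlier results of these data known. The text names the 5 members, up to 3 called genes a list with the largest change at the high doses and the 3 genes most like each member; further list genes were named after their values were seen. A single list gene that the rule names is not reported here. The fit was tested on simulated counts with known changes.

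The labels do not say that replicates are separate cultures, so p-values measure the spread between these libraries, which may be technical. Depth was 17214724 to 39751138 counts a library. Alternatives were DESeq2 1.42.0, edgeR with DESeq2's size factors, no filter on low counts, leaving out the 4 libraries with high antisense counts, only the libraries compared, the replicate number as a block and each library left out in turn. Same-numbered libraries were checked for deviating together: against vehicle their correlations were -0.16 to 0.16, and every pair exceeded 0.1 in Citri Unshius Pericarpium high against low dose alone (0.12 to 0.24). For that comparison a replicate block with its own libraries was added after seeing the data.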

Additional observations from a re-analysis of the deposited data

Results flagged for a closer look

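These differences between 2 preparations of a library set at their high dose passed an adjusted p of 0.05 (edgeR's quasi-likelihood test, Benjamini-Hochberg over all genes tested). Cimicifugae Rhizoma over Citri Unshius Pericarpium was -0.66 for PLAUR, -0.47 for PLAU and 0.63 for TFPI on the log2 scale. Without the Citri library of replicate 2 PLAU was -0.09, and without that of replicate 3 TFPI was 0.30. Bupleuri Radix over Aconiti Lateralis Radix Preparata was -0.69 for PLAT and -0.55 for PLAUR, at 190 against 500 µg/mL. The change of high over low dose differed between Cimicifugae and Citri for PLAUR by -0.64 (adjusted p = 0.0418), and by -0.36 without the Citri high-dose library of replicate 2 (0.114).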

How the results depend on the processing

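Over 63 settings, 2135 values of single genes were recomputed: 2031 kept their side of the threshold, 65 lost a call and 39 gained one, and of 71 that took the other sign none was called. No result with a call changed direction. The number of the 5 genes called over the 3 doses against vehicle was 6 for Aconiti (4 to 6 with 1 library left out), 1 for Coptidis (0 to 1), 0 for Citri (0 to 2), and 0 for Cimicifugae, Bupleuri, Zizyphi and Yijung-tang (0 to 0 each). High against low dose gave 2 in Citri (0 to 3), 1 in Bupleuri (0 to 1), 2 in Aconiti (2 to 2) and 0 in Coptidis (0 to 0). Aconiti medium against high gave 2 (1 to 2) and against low 4 (4 to 4). Between preparations the counts were 0 for Coptidis and Zizyphi (0 to 0), 3 for Cimicifugae and Citri (1 to 3) and 2 for Bupleuri and Aconiti (0 to 1), and between their dose changes 0, 1 (0 to 3) and 0. Among all replicated groups 3 were called (3 to 3).

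Aconiti over its doses had 5 by DESeq2 and with no filter, 7 without the 4 libraries and 8 with only the libraries compared. Under the last 2 settings its high against low dose had 3, as had Bupleuri against Aconiti, and medium against high had 3 without the 4 libraries. Settings that moved the other counts, or moved them by more than 1.5 times, were as follows. DESeq2 gave 1 in Citri over its doses, 1 in Coptidis against Zizyphi and 2 in the dose changes of Cimicifugae and Citri. Size factors gave 1 in Coptidis against Zizyphi. No filter gave 1 in Coptidis against Zizyphi, 1 in Bupleuri against Aconiti and 2 in the dose changes of Cimicifugae and Citri. Without the 4 libraries there was 1 each in Citri, Cimicifugae and Bupleuri over their doses and in Coptidis against Zizyphi, 0 in the dose changes of Cimicifugae and Citri, and 4 among all groups. With only the libraries compared there were 3 in Coptidis and 2 in Bupleuri over their doses; high against low 1 in Coptidis, 0 in Citri and 2 in Bupleuri; 4 in Aconiti medium against high; 1 in Coptidis against Zizyphi and 0 in Cimicifugae against Citri; and dose changes of 1, 0 and 2. The cause was not tested.

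The replicate block gave 1 call in Coptidis against Zizyphi and changed no other count. With the Citri libraries alone, a fit added after seeing the data, it left 0 of 2. Counts over all genes moved by more than 1.5 times in 35 of 37 tests without the 4 libraries (Aconiti medium dose 6018 against 3253 genes, Citri high dose 266 against 821), in 19 of 37 by DESeq2, in 23 with no filter, in 32 of 36 with only the libraries compared, and in 0 with size factors or the block. PLAT and F3, with 26 to 106 counts a library, are limited by depth.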
